A study of Mus musculus with 8 samples.

Results

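A set of 40 genes whose products build ribosomes or reside in the nucleolus were followed over the first day of micromass culture of CH310T1/2 cells, a mouse mesenchymal line that can be driven toward cartilage when its cells are plated at high density. The genes were taken by symbol from a list of 40, and 81 probe sets of the 45037 on the array carried one of those symbols. For each gene the brightest probe set on average was used, which made 40 genes of the 22657 symbols in all. Within day 0, all 40 genes read higher on 1 of the 2 arrays of each group than on the other, by a median of 1.54 log2 units between the Erg-labelled arrays and 0.80 between the control arrays. Of the 40, 0 passed the test between the days in Erg-labelled cultures, where 5.85% of all symbols were called higher and 1.97% lower. In control cultures 2 fell and 0 rose, a share below that of all symbols (9.34% lower and 10.5% higher). The number that fell changed with the setting. It was 0 with probe sets averaged per symbol (9.62% of all symbols) and 8 with only the 4 arrays compared (14.3%). Between the plasmids 0 passed, as for 0.0% of all symbols on either day.

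The study hybridised total RNA to 8 Affymetrix mouse genome arrays, 2 in each of 4 groups. On day 1, cells had been electroporated either with a plasmid in which the Col2 promoter drives Erg-010 (Erg belongs to the ETS family of transcription factors), or with a control plasmid. On day 0, the Erg-010 plasmid carried the CMV promoter in place of Col2, and the other group again had a control plasmid. Every group shared the cell line, the electroporation and the micromass format. Because the promoter changed along with the day, promoter and day cannot be told apart among the Erg-labelled arrays. The labels number the arrays of a group but do not tell separate cultures from repeat hybridisations, so the tests measure only the spread between arrays, which may be technical. The number of arrays limits the precision.

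The brighter of the Erg probe sets read 8.53 and 7.68 on Erg-labelled and 8.43 and 8.50 on control arrays of day 1, and 6.79 and 5.59 on Erg-labelled against 7.30 and 7.61 on control arrays of day 0. Erg was thus not higher in either group labelled for its overexpression (log2 difference -0.36, SE 0.42, on day 1 and -1.26, SE 0.42, on day 0, with limma adjusted p of 1.0 and 0.802). Whether these probe sets lie within the plasmid's insert was not given in the sources used here, and the groups are called Erg-labelled for that reason. The 10 mesenchymal marker genes, all 10 above the first quartile of the array, summed to 129130 and 133654 intensity units on Erg-labelled and 128744 and 119156 on control arrays of day 1. On day 0 the sums were 121431 and 78064 on Erg-labelled and 103913 and 107513 on control arrays. The array of Erg-labelled replicate 2 on day 0 stood apart from the other 7. The SD of the difference between the 2 replicate arrays over all probe sets was 0.233 for Erg-labelled and 0.335 for control arrays of day 1, and 0.611 for Erg-labelled and 0.260 for control arrays of day 0.

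Ribosome production starts in the nucleolus, where RNA polymerase I copies the ribosomal DNA into a long precursor RNA. Small nucleolar ribonucleoproteins mark that precursor by ribose methylation (box C/D type) or by turning uridine into pseudouridine (box H/ACA type), and large sets of processing factors, helicases and chaperones cut, fold and pack it into the small and large subunits. Growing cells make many ribosomes, and the genes for this machinery are known to be induced with growth and by the transcription factor Myc.

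The 250 bases upstream of the transcription start are shown for 5 of these genes, to give the regulatory sequence beside their values. RefSeq promoter entries (GRCm38.p6) matched 35 of the 40 genes by symbol. Bop1, which passed the test threshold in control cultures, was not among them. Capitals mark the motifs that were searched on both strands of 300 bases around the start: CACGTG, the E-box that Myc and its partners can bind, CCGGAAGT, a core that ETS-family factors can bind, and CTCGCGAG, a palindrome of CpG-rich promoters. These motifs do not share an overlap with each other in the 5 windows. Nop56, which had the lowest day difference, is given at chr2:130274162-130274411 on the plus strand, and Nhp2, 1 of the 2 genes past the test threshold, at chr11:51619523-51619772 on the plus strand. Wdr12, lowest after Nop56 and Nhp2, is given from its start farthest upstream at chr1:60098501-60098750 on the minus strand. Nat10, with the control day difference nearest to 0, is at chr2:103761271-103761520 on the minus strand. Nop2, at chr6:125131633-125131882 on the plus strand, was chosen after its values were seen, as an example of a window with the E-box.
Nop56: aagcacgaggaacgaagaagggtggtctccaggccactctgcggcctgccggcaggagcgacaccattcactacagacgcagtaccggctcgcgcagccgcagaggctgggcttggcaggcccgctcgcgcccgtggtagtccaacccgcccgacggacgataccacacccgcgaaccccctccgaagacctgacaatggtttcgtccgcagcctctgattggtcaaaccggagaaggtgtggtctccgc
Nhp2: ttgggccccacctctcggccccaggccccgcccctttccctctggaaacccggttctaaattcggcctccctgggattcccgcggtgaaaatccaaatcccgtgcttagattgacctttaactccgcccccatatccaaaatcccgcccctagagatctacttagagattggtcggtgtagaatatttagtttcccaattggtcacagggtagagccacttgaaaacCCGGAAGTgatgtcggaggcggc
Wdr12: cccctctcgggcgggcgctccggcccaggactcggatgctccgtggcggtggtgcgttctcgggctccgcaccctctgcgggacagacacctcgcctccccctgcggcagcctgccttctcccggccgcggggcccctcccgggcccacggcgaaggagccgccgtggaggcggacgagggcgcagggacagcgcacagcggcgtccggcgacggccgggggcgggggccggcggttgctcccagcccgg
Nat10: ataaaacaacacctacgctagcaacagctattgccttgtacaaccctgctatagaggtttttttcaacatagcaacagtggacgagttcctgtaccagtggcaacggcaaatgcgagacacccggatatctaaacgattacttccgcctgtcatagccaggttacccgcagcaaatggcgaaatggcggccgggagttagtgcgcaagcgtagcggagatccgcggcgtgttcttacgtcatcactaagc
Nop2: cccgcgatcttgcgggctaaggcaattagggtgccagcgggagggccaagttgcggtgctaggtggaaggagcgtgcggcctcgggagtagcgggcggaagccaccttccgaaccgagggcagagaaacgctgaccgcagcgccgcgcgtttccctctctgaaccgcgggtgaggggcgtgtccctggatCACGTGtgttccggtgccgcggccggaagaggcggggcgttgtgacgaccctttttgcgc

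The ETS core lay at position -23 from the start of Nhp2, and the E-box at -60 from the start of Nop2, while the windows of Nop56, Wdr12 and Nat10 held none of the 3 motifs. Among the 35 matched genes, 5 (14.3%) had the E-box (Wdr43, Utp20, Pes1, Nop2 and Mybbp1a), against 8.09% of 27025 genes with an entry. The ETS core was found in 6 (17.1%; Gar1, Nhp2, Polr1c, Heatr1, Ppan and Noc2l), against 4.31% of all genes, and the palindrome in 0, against 1.04%. A match is a description of letters in a window and not a bound site.

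Levels are given as log2 intensity, and a gap is the log2 difference between the 2 arrays of a group. Relative to its own mean over the 8 arrays, the median gene lay at -0.14 and -0.30 on the Erg-labelled and -0.23 and -0.38 on the control arrays of day 1, and at -0.28 and 1.25 on the Erg-labelled and 0.41 and -0.39 on the control arrays of day 0. The 4 arrays of day 1 were thus close together, and the arrays of day 0 spread over a range wider than any gap to day 1. Erg-labelled replicate 2 of day 0 was the highest of the 8 arrays for all 40 genes, which was the case for 21.0% of all symbols.

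**Figure D1:**
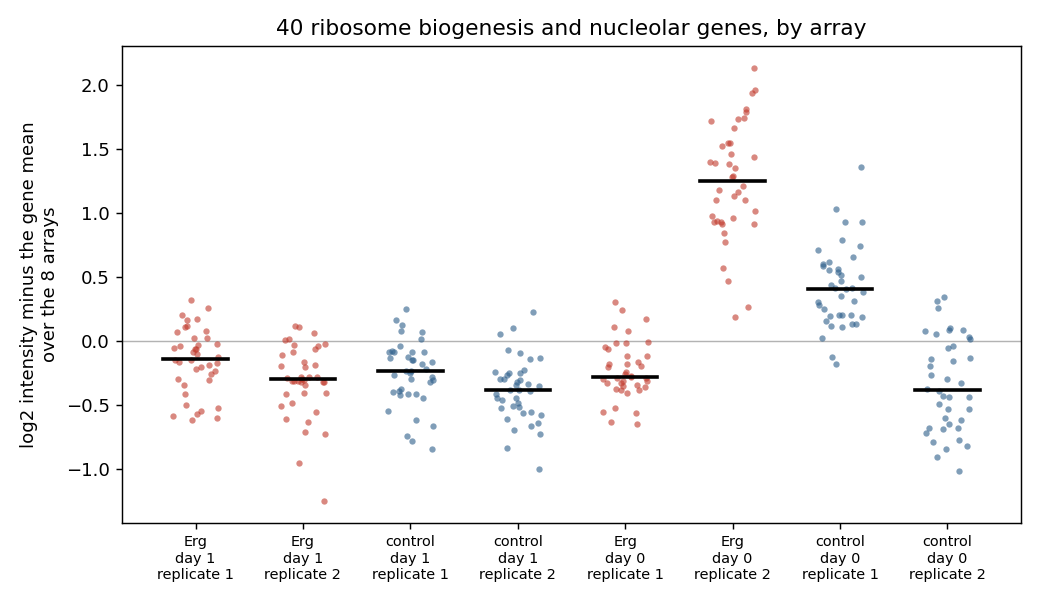
Each point is 1 of the 40 genes, as log2 intensity minus the mean of that gene over the 8 arrays, with the arrays on the horizontal axis and the median as a black bar. Erg-labelled replicate 2 of day 0 lies highest (median 1.25), control replicate 1 of day 0 next (0.41), and the other 6 arrays have medians between -0.39 and -0.14.

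On day 0, all 40 genes were higher on Erg-labelled replicate 2 than on replicate 1, by 0.11 (Npm1) to 2.39 (Rrp12), and 33 of them by at least 2-fold, against 6.36% of all symbols. In the control group the numbers ran the other way: all 40 were higher on replicate 1 than on replicate 2, by 0.01 (Npm1) to 1.56 (Noc2l), and 9 by at least 2-fold, against 0.486% of all symbols. What the replicate numbers stand for, and whether any of the 4 arrays of day 0 were exchanged or share a culture, cannot be read from the files, and this bears on the gaps and on the plasmid difference of day 0. Both gaps were above 0 in 40 of 40 genes, against 30.8% of symbols, and both were at least 2-fold in 9, against 0.481%. The median symbol differed by only -0.07 and -0.02 over the same array pairs. With 2 arrays a group, such gaps have no test of their own.

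On day 1 the replicates lay closer together. Erg-labelled replicate 1 minus replicate 2 had a median of 0.17 over the 40 genes (range -0.22 to 0.66), and the same difference in the control group a median of 0.18 (range -0.48 to 0.51). None of the 40 genes reached a 2-fold difference between replicates of day 1 in either group.

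Over the 40 genes the Erg-labelled and control gaps of day 0 had a Pearson r of 0.87, against 0.64 over all symbols. These r are given as descriptions without a p, since genes on 1 array share its RNA and processing. Among the 41 other probe sets of the same genes, both gaps were above 0 in 35.

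**Figure D2:**
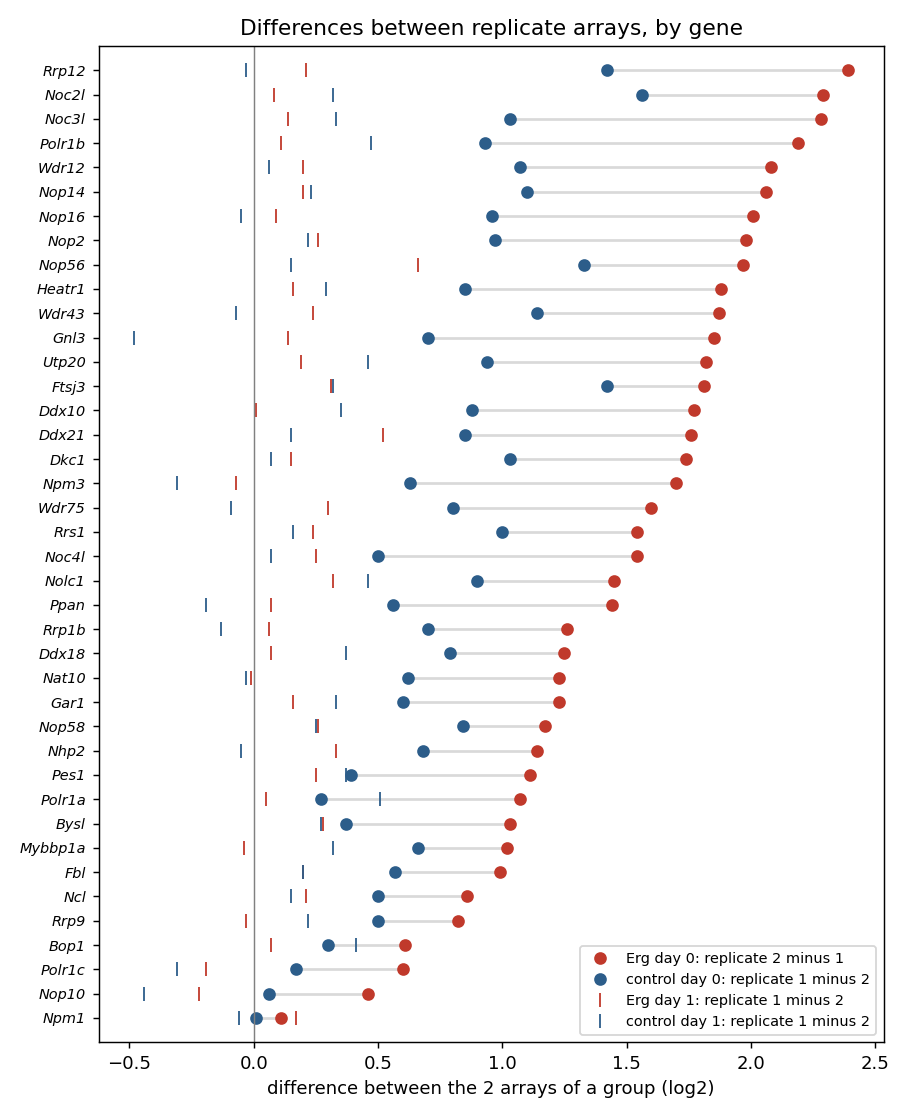
For each gene, filled points give the log2 difference between the 2 arrays of day 0 (Erg-labelled in red, replicate 2 minus 1; control in blue, replicate 1 minus 2) and ticks the difference between the arrays of day 1 (replicate 1 minus 2). All day 0 points lie above 0, up to 2.39 for Erg-labelled and 1.56 for control arrays, while the ticks of day 1 lie between -0.48 and 0.66.

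The box C/D proteins, which carry out ribose methylation of rRNA, had a median gap of 1.17 on the Erg-labelled and 0.84 on the control arrays of day 0. Nop56, a scaffold of the particle, read 10.25 and 9.60 on the Erg-labelled arrays and 10.01 and 9.85 on the control arrays of day 1, against 11.02 and 12.99 on the Erg-labelled arrays and 12.21 and 10.88 on the control arrays of day 0. Every array of day 0 was above every array of day 1, and within each day 0 group 1 array was far above the other. Its partner Nop58 read 11.65 and 11.40 on the Erg-labelled arrays and 11.55 and 11.29 on the control arrays of day 1, against 11.75 and 12.92 on the Erg-labelled arrays and 12.40 and 11.55 on the control arrays of day 0. Both Erg-labelled arrays and control replicate 1 of day 0 were above every day 1 array, and control replicate 2 was within the day 1 range. Fbl, the methyltransferase, read 11.15 and 10.96 on the Erg-labelled arrays and 11.07 and 10.88 on the control arrays of day 1, against 11.35 and 12.33 on the Erg-labelled arrays and 11.88 and 11.31 on the control arrays of day 0, again with no overlap between the days.

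The box H/ACA proteins had medians of 1.19 and 0.64. Dkc1, the pseudouridine synthase whose human counterpart is mutated in dyskeratosis congenita, read 10.57 and 10.42 on the Erg-labelled arrays and 10.46 and 10.39 on the control arrays of day 1, against 10.45 and 12.18 on the Erg-labelled arrays and 11.24 and 10.21 on the control arrays of day 0. The lower array of each day 0 group was at or just below the day 1 range and the higher one 1.74 (Erg-labelled) or 1.03 (control) units above the lower. Nhp2, a core protein of the same particle, read 11.41 and 11.07 on the Erg-labelled arrays and 11.28 and 11.33 on the control arrays of day 1, against 12.27 and 13.41 on the Erg-labelled arrays and 13.06 and 12.37 on the control arrays of day 0. Both plasmid groups were lower on day 1 without overlap. Gar1 and Nop10 complete the particle. Gar1 read 10.68 and 10.53 on the Erg-labelled arrays and 10.64 and 10.31 on the control arrays of day 1, against 10.19 and 11.41 on the Erg-labelled arrays and 10.68 and 10.07 on the control arrays of day 0, with its day 1 arrays between the arrays of each day 0 group or level with the higher control one. Nop10 spanned only 12.82 to 13.34 over all 8 arrays.

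Among the abundant nucleolar proteins the gaps were uneven. By these probe sets Npm1, the chaperone nucleophosmin, had the smallest gaps of all 40 genes (its other probe set had 0.39 and 0.12) and read 14.08 and 13.91 on the Erg-labelled arrays and 13.96 and 14.02 on the control arrays of day 1, against 14.19 and 14.30 on the Erg-labelled arrays and 14.22 and 14.21 on the control arrays of day 0. Ncl, nucleolin, read 13.01 and 12.80 on the Erg-labelled arrays and 12.94 and 12.79 on the control arrays of day 1, against 12.31 and 13.16 on the Erg-labelled arrays and 12.51 and 12.00 on the control arrays of day 0. By its brightest probe set Ncl was the one gene with a positive day difference in both plasmid groups, and 3 of the 4 day 0 arrays were below its day 1 arrays. The other probe sets of Ncl had day differences of -0.27 to -0.01 in Erg-labelled and 0.41 to 0.85 in control cultures. Its 4 probe sets had Erg-labelled gaps of 0.85 to 1.82 and control gaps of 0.43 to 1.00. Gnl3, the GTP-binding protein nucleostemin, read 10.18 and 10.04 on the Erg-labelled arrays and 9.97 and 10.45 on the control arrays of day 1, against 10.57 and 12.42 on the Erg-labelled arrays and 11.54 and 10.84 on the control arrays of day 0, with 1.85 units between the Erg-labelled arrays of day 0. Nolc1, a chaperone of small nucleolar particles, read 9.90 and 9.58 on the Erg-labelled arrays and 9.71 and 9.25 on the control arrays of day 1, against 9.30 and 10.74 on the Erg-labelled arrays and 9.77 and 8.87 on the control arrays of day 0. Its gaps were 1.45 and 0.90, and the day 1 arrays lay inside the range of day 0. The probe set of Npm3, a nucleophosmin relative with gaps of 1.70 and 0.63, is shared on the array with 2 other symbols, LOC639633 and Npm3-ps1, so its reading is uncertain.

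RNA polymerase I was represented by its 2 largest subunits and by Polr1c, which RNA polymerase III also contains. Polr1b read 7.16 and 7.06 on the Erg-labelled arrays and 7.26 and 6.79 on the control arrays of day 1, against 6.96 and 9.14 on the Erg-labelled arrays and 7.66 and 6.73 on the control arrays of day 0. A single array, Erg-labelled replicate 2, lay far above the other 7. Polr1a read 8.50 and 8.45 on the Erg-labelled arrays and 8.46 and 7.95 on the control arrays of day 1, against 8.04 and 9.11 on the Erg-labelled arrays and 8.21 and 7.94 on the control arrays of day 0. Its higher Erg-labelled array of day 0 again led, but the control arrays of day 0 stayed within 0.27 of each other. Polr1c read 10.66 and 10.85 on the Erg-labelled arrays and 10.78 and 11.09 on the control arrays of day 1, against 11.14 and 11.73 on the Erg-labelled arrays and 11.60 and 11.42 on the control arrays of day 0, with gaps of 0.60 and 0.17 and with every day 0 array above every day 1 array.

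The 12 small subunit and early processing factors had median gaps of 1.77 and 0.85. Rrp12, a factor of small subunit maturation and export, read 7.66 and 7.45 on the Erg-labelled arrays and 7.46 and 7.50 on the control arrays of day 1, against 6.99 and 9.38 on the Erg-labelled arrays and 8.05 and 6.62 on the control arrays of day 0. It had the widest Erg-labelled gap of the 40, and its day 1 arrays lay between the low and the high array of each day 0 group. Nop14, a component of the small subunit processome, read 8.76 and 8.56 on the Erg-labelled arrays and 8.61 and 8.38 on the control arrays of day 1, against 8.12 and 10.17 on the Erg-labelled arrays and 8.84 and 7.74 on the control arrays of day 0. In 6 of the 40 genes, 5 of them in this class, the 4 day 1 arrays lay between Erg-labelled replicate 1 and control replicate 2 below and Erg-labelled replicate 2 and control replicate 1 above. Over all symbols this order was found for 124 of 22657. Heatr1, which joins the precursor early and also acts in its transcription, read 8.57 and 8.41 on the Erg-labelled arrays and 8.49 and 8.21 on the control arrays of day 1, against 8.39 and 10.27 on the Erg-labelled arrays and 9.14 and 8.29 on the control arrays of day 0. Utp20, a large scaffold protein of the processome, read 9.73 and 9.54 on the Erg-labelled arrays and 9.69 and 9.23 on the control arrays of day 1, against 8.89 and 10.71 on the Erg-labelled arrays and 9.68 and 8.74 on the control arrays of day 0. For Utp20 the day 1 arrays were above the lower array of each day 0 group, and for Heatr1 most were near it. The early factors Wdr43, Heatr1 and Utp20 had Erg-labelled gaps of 1.87, 1.88 and 1.82 and control gaps of 1.14, 0.85 and 0.94. The RNA helicases Ddx10 and Ddx21 had 1.77 and 1.76 on Erg-labelled and 0.88 and 0.85 on control arrays. Wdr75, a further early factor, had gaps of 1.60 and 0.80, Noc4l, a partner of Nop14 in yeast, 1.54 and 0.50, and Nat10, which acetylates the small subunit rRNA, 1.23 and 0.62. Nat10 read 8.56 and 8.56 on the Erg-labelled arrays and 8.42 and 8.45 on the control arrays of day 1, against 8.27 and 9.50 on the Erg-labelled arrays and 8.77 and 8.15 on the control arrays of day 0, so that its day 1 arrays lay inside the range of day 0. Rrp9, a protein specific to the U3 particle, had the smallest gap in the class on Erg-labelled arrays (0.82, and 0.50 on control arrays), and Bysl, a late maturation factor, the smallest on control arrays (0.37, and 1.03 on Erg-labelled arrays).

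The 12 large subunit assembly factors had median gaps of 1.67 and 0.97. Noc2l, which moves large subunit precursors through the nucleus in yeast, read 8.23 and 8.15 on the Erg-labelled arrays and 8.15 and 7.83 on the control arrays of day 1, against 8.11 and 10.41 on the Erg-labelled arrays and 9.21 and 7.65 on the control arrays of day 0. It had the widest control gap of the 40, and Noc3l, its relative, an Erg-labelled gap of 2.28. Bop1, Pes1 and Wdr12 form 1 complex needed for maturation of the large subunit rRNA, and they did not share a gap size. Wdr12 read 9.41 and 9.21 on the Erg-labelled arrays and 9.27 and 9.21 on the control arrays of day 1, against 9.82 and 11.90 on the Erg-labelled arrays and 10.87 and 9.80 on the control arrays of day 0. Its Erg-labelled gap of 2.08 compared with 1.11 for Pes1 and 0.61 for Bop1. Bop1 read 8.40 and 8.33 on the Erg-labelled arrays and 8.39 and 7.98 on the control arrays of day 1, against 9.12 and 9.73 on the Erg-labelled arrays and 9.43 and 9.13 on the control arrays of day 0, with the days fully apart. Nop16 read 9.91 and 9.82 on the Erg-labelled arrays and 9.84 and 9.89 on the control arrays of day 1, against 10.18 and 12.19 on the Erg-labelled arrays and 11.39 and 10.42 on the control arrays of day 0. It too had no overlap between the days, although its gaps of day 0 were 2.01 and 0.96. The rRNA methyltransferase Nop2 read 8.80 and 8.55 on the Erg-labelled arrays and 8.66 and 8.44 on the control arrays of day 1, against 8.94 and 10.92 on the Erg-labelled arrays and 9.76 and 8.78 on the control arrays of day 0. Here control replicate 2 of day 0 was within the day 1 range, and its gaps were 1.98 and 0.97. Rrs1, which helps load the smallest ribosomal RNA into the large subunit in yeast, had gaps of 1.54 and 1.00, and Ppan, an early assembly factor, 1.44 and 0.56. Rrp1b had 1.26 and 0.70, the helicase Ddx18 1.25 and 0.79, and Ftsj3, a nucleolar methyltransferase-like protein, 1.81 and 1.42. In every one of these the higher Erg-labelled array was also the highest of the 8. Mybbp1a, a nucleolar protein that binds Myb and represses transcription, stood outside these classes with 1.02 and 0.66.

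The day comparison asks what the first day of micromass culture did to these genes in each plasmid group. In Erg-labelled cultures, 39 of 40 genes had negative day differences (day 1 minus day 0), against 13470 of 22657 symbols. The median over the 40 genes was -0.70 against -0.08 over all symbols, with a range of -2.08 (Nop56) to 0.17 (Ncl). No member passed an adjusted p of 0.05 in limma, with 0 higher and 0 lower, against 5.85% of symbols higher and 1.97% lower. At an unadjusted p under 0.05 there were 7 members, all lower, or 17.5%, against 27.3% of all symbols. Without Erg-labelled replicate 2 of day 0 the median was 0.05, with 23 genes positive and 17 negative. Without replicate 1 the median was -1.42. Both fits assume that a lone array varies like the other groups.

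In control cultures, 30 of 40 had negative day differences, against 14366 of 22657 symbols. The median over the 40 genes was -0.29 against -0.15 over all symbols, with a range of -1.61 (Nop56) to 0.61 (Ncl). Of the 40, 2 fell, Bop1 and Nhp2, and 0 rose, against 9.34% of symbols lower and 10.5% higher. In this fit the share of members called was below the background in both directions, and it changed with the setting, as given at the end. The 4 groups share their estimate of the spread of a probe set, so the day 0 gap between the Erg-labelled arrays also enters these tests. Bop1 fell by 1.09 (SE 0.24, limma adjusted p 0.0254) and Nhp2 fell by 1.41 (SE 0.39, adjusted p 0.0467), each with both day 1 arrays below both day 0 arrays. The same differences in Erg-labelled cultures were -1.06 (SE 0.24, adjusted p 0.0501) and -1.60 (SE 0.39, adjusted p 0.0592). Whether these differ between the plasmid groups was tested as an interaction, given after the plasmid comparisons. The other Bop1 probe set had a control day difference of 0.37 (SE 0.24, adjusted p 0.295), while the other Nhp2 probe set had -1.39 (SE 0.65, adjusted p 0.165).

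Over the fits that leave out 1 array, the day difference in control cultures was -1.30 to -0.89 for Bop1 and -1.75 to -1.07 for Nhp2. The adjusted p in the same fits was 0.00477 to 0.128 for Bop1 and 0.00528 to 0.20 for Nhp2. Each such fit leaves a group with a lone array, which has no spread of its own. The share of all symbols called also changed between these fits, so calls among the 40 genes in them are not read as results. The control median was -0.29 when any 1 Erg-labelled array was left out. It was 0.08 without control replicate 1 and -0.70 without control replicate 2 of day 0. Without control replicate 1 or 2 of day 1 it was -0.38 or -0.24.

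Over the 40 genes, the day differences of the Erg-labelled and control cultures, which share no array, had an r of 0.91. It is given as a description, without an r over all symbols beside it. Nop56, Nhp2, Wdr12 and Nop16 were among the 5 lowest in both plasmid groups, and Ncl and Utp20 among the 5 highest. Wdr12 had -1.56 (SE 0.65) in Erg-labelled and -1.10 (SE 0.65) in control cultures. Nop16, a large subunit assembly factor, had -1.32 (SE 0.62) and -1.04 (SE 0.62), and Gnl3, 1 of the 5 lowest in Erg-labelled cultures, -1.39 (SE 0.56) and -0.98 (SE 0.56). Ncl had 0.17 (SE 0.30) and 0.61 (SE 0.30), and Utp20 -0.16 (SE 0.58) and 0.25 (SE 0.58). None of these 5 passed the threshold in either group. Gar1, Nop10 and Polr1a, among the 5 highest in Erg-labelled cultures, had -0.20, -0.18 and -0.10, and Rrp1b, Nop14 and Nolc1, among the 5 highest in control cultures, had 0.31, 0.21 and 0.16.

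All 4 day 1 arrays lay below all 4 day 0 arrays for 12 of 40 genes, against 22.1% of all symbols, and above them for 0, against 16.8%. The 12 were Fbl, Nop56, Nhp2, Npm1, Gnl3, Polr1c, Wdr75, Rrp9, Bysl, Bop1, Wdr12 and Nop16, and they came from every class except the single other nucleolar gene.

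**Figure D3:**
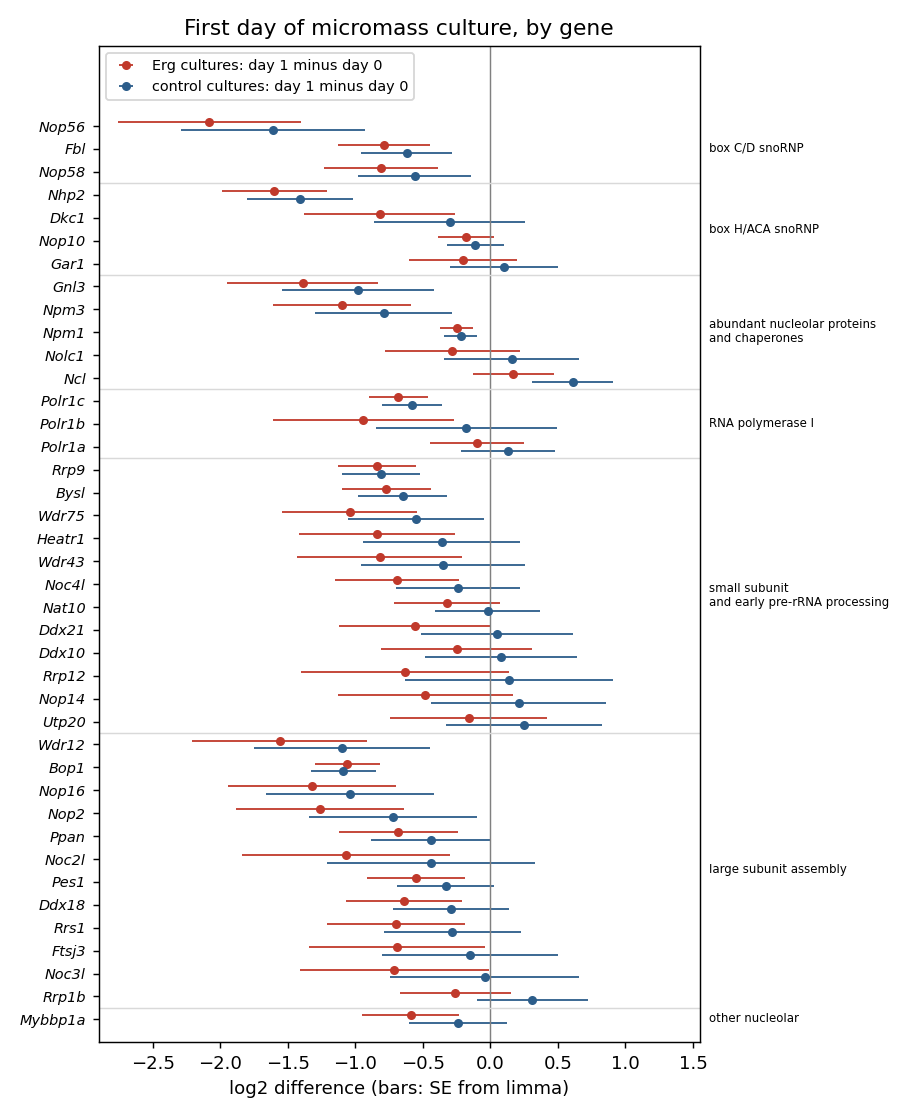
Log2 differences of day 1 minus day 0 for each gene, in Erg-labelled (red) and control (blue) cultures, grouped by class, with bars for the SE from limma. Most points lie below 0 in both groups, from -2.08 for Nop56 to 0.61 for Ncl, and the bars are shortest for Npm1 (0.12) and longest for Rrp12 and Noc2l (0.77).

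The plasmid comparison on day 1 asks whether Erg-010 under the Col2 promoter changed these genes. Differences (Erg-labelled minus control) were small, with a median of 0.11 against 0.04 over all symbols and a range of -0.18 (Polr1c) to 0.27 (Polr1a). Of the 40, 33 were positive and 7 negative, against 13920 positive and 8736 negative of 22657 symbols. Of the 40, 0 passed the threshold, as did 0.0% of all symbols. The smallest limma adjusted p among the members was 1.0, and 0 had an unadjusted p under 0.05, against 0.768% of symbols. Polr1a and Nolc1 both had 0.27 (SE 0.35 and 0.50), Ddx10 0.23 (SE 0.56), and Noc2l and Ddx18 0.20 (SE 0.77 and 0.43). At the other end, Polr1c had -0.18, Nop10 and Npm3 -0.15, and Gnl3 and Wdr75 -0.10. Both Erg-labelled arrays were above both control arrays for 4 of 40 genes (Wdr43, Rrp9, Nat10 and Ddx10), against 21.1% of symbols. Leaving out 1 array at a time moved the median between 0.00 and 0.20.

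On day 0, with Erg-010 under the CMV promoter, the Erg-labelled minus control difference had a median of 0.51 against -0.03 over all symbols. It was positive in 38 genes and negative in 2, where 10143 of 22657 symbols were positive. None passed the threshold, as for 0.0% of symbols, and 0 of 40 had an unadjusted p under 0.05, against 6.10% of symbols. In 0 of the 40 genes were both Erg-labelled arrays above both control arrays, against 12.9% of symbols. Nop14, Rrp12 and Polr1b had the widest differences at 0.86 (SE 0.65), 0.85 (SE 0.77) and 0.85 (SE 0.67), followed by Noc2l (0.83) and Noc3l (0.79). The lowest were Nop10 and Polr1c at -0.08, Npm1 at 0.03, Nhp2 at 0.13 and Bop1 at 0.15. The sign depended on 1 array. Without Erg-labelled replicate 2 the median was -0.25, with 2 genes positive and 38 negative, and without Erg-labelled replicate 1 it was 1.24, with all 40 positive. In that fit Polr1b had 1.94 and Noc3l 1.93. The Erg-labelled group is then a lone array with no spread of its own, so these differences are given without a test. The median was 0.83 without control replicate 1 and 0.10 without control replicate 2.

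The difference between the days in the plasmid effect (day 1 minus day 0) had a median of -0.41 over the 40 genes and a range of -0.77 to 0.04. It was negative in 39 and positive in 1, where 9535 of 22657 symbols were negative. No gene passed the threshold, as for 0.0% of symbols, the smallest adjusted p among the members was 0.974, and 0 had an unadjusted p under 0.05, against 2.10% of symbols. For Bop1 it was 0.04 (SE 0.34, adjusted p 0.992) and for Nhp2 -0.19 (SE 0.55, adjusted p 0.975). Without Erg-labelled replicate 2 of day 0 the median was 0.34.

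The same day 0 arrays were then read for other steps of the pathway, from lists that do not contain the 40 genes. Each gap was taken in the direction seen in the 40 genes. Of all 22657 symbols, 9729 had a positive Erg-labelled gap and 10353 a positive control gap, and 6.36% and 0.486% reached 2-fold. Of 37 other factors of the small subunit, 36 had a positive Erg-labelled gap and 36 a positive control gap, with medians of 1.17 and 0.52, and 25 and 2 reached 2-fold. All 34 other factors of large subunit assembly had positive gaps in both groups, with medians of 1.19 and 0.49, and 24 and 0 reached 2-fold. The 12 other subunits and factors of RNA polymerase I had 11 positive gaps in each group and medians of 1.23 and 0.40. The 14 exosome and rRNA exonuclease genes, which trim the precursor, were positive in all 14 in both groups, with medians of 0.89 and 0.27. The 75 cytosolic ribosomal proteins had medians of 0.09 and 0.01, with 0 at 2-fold in either group. Rpl4, Rpl27 and Rpl23, named by the rule, read between 13.67 and 14.67 over the 8 arrays, and whether probe sets at such signals were near saturation was not tested, so these small gaps do not show steady levels.

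**Figure D4:**
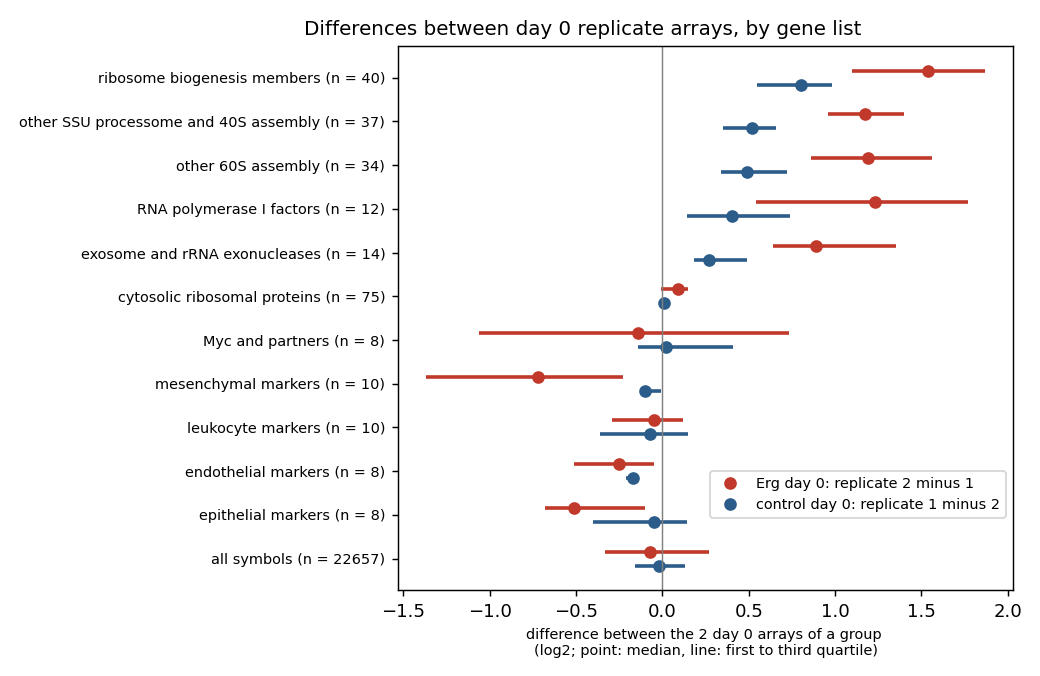
Median (point) and interquartile range (line) of the log2 difference between the 2 arrays of day 0, for Erg-labelled (red, replicate 2 minus 1) and control arrays (blue, replicate 1 minus 2), by gene list. The assembly, polymerase and exosome lists lie to the right of 0 with the members (1.54 and 0.80), and the ribosomal proteins (0.09 and 0.01) and all symbols (-0.07 and -0.02) lie near 0.

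Calls between the days are read against all symbols, of which 1.97% were lower in Erg-labelled and 9.34% in control cultures. In Erg-labelled cultures the small subunit factor Dcaf13 (-1.04, adjusted p 0.0454) and the large subunit factor Sdad1 (-1.24, adjusted p 0.0193) fell. In control cultures Dcaf13 (-0.94, adjusted p 0.0330) was 1 of 37 small subunit factors to fall, and Sdad1 (-0.80, adjusted p 0.0341), Nle1 (-0.99, adjusted p 0.0372) and Rpf1 (-1.33, adjusted p 0.0494) were 3 of 34 large subunit factors. The exosome components Exosc5 (-0.75, adjusted p 0.0193) and Exosc4 (-0.85, adjusted p 0.0370) were 2 of 14. None of the 12 polymerase factors and none of the 75 ribosomal proteins passed in control cultures. Utp23 (-1.19, limma adjusted p 0.0918), Imp4 (-1.04, adjusted p 0.107) and Exosc8 (-0.71, adjusted p 0.097) did not pass there either. Of the polymerase factors, Taf1b had -0.78 (adjusted p 0.0508), Polr1e -1.31 (adjusted p 0.22) and Ubtf 0.46 (adjusted p 0.17) in control cultures.

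Myc, the growth-associated transcription factor, read 9.08 and 8.45 on the Erg-labelled and 8.66 and 8.42 on the control arrays of day 1, against 9.19 and 11.42 on the Erg-labelled and 10.23 and 9.03 on the control arrays of day 0. Its order over the arrays of day 0 was that of the members, with gaps of 2.23 and 1.20. This order, Erg-labelled replicate 2 first and control replicate 1 next, held for 4644 of 22657 symbols. It held for 3 of the 8 genes listed as Myc and its partners. Those 8 had median gaps of -0.14 and 0.02, with 4 positive and 4 negative in each group. The day differences of Myc did not pass in limma (-1.54, adjusted p 0.239, and -1.09, adjusted p 0.304). Mycn, its relative, read 6.68 and 6.77 on the Erg-labelled and 6.85 and 6.59 on the control arrays of day 1, against 11.39 and 9.81 on the Erg-labelled and 10.96 and 11.19 on the control arrays of day 0. Mycn fell by 3.88 in Erg-labelled (SE 0.45, adjusted p 0.00879) and fell by 4.36 in control cultures (SE 0.45, adjusted p 0.00386), and its gaps ran the other way from those of Myc (-1.57 and -0.23). Mxd1, which competes with Myc for the partner Max, rose by 0.94 in Erg-labelled (adjusted p 0.0217) and by 0.71 in control cultures (adjusted p 0.0252). Mnt, another such competitor, rose in control cultures (0.83, adjusted p 0.0146) and had 0.57 in Erg-labelled cultures (adjusted p 0.0743).

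Marker lists also varied along with the arrays of day 0. The 10 mesenchymal markers had median gaps of -0.72 on Erg-labelled and -0.10 on control arrays, and their summed level on Erg-labelled replicate 2 was the lowest of the 8 arrays. Leukocyte markers summed to 1021 and 1145 on Erg-labelled and 1032 and 1093 on control arrays of day 1, against 2728 and 1898 on Erg-labelled and 2538 and 2867 on control arrays of day 0, with 2 of 10 below the first quartile on every array. Cd14 alone read 8.22 and 8.68 on Erg-labelled and 8.20 and 8.61 on control arrays of day 1, against 10.77 and 9.68 on Erg-labelled and 10.62 and 10.83 on control arrays of day 0, while the median day difference of the list was -0.25 in Erg-labelled and -0.35 in control cultures. Of the named leukocyte markers, Cd68 had day 0 gaps in the direction of the members (1.27 and 0.58). Cd14 had -1.09 and -0.20, and Lyz2 0.13 and -0.26. Over the 10 leukocyte markers the gaps had medians of -0.05 and -0.07, with 5 positive and 5 negative in each group. Endothelial markers (8 genes, 2 below) summed to between 481 and 538 on day 1 and between 484 and 640 on day 0. Epithelial markers (8 genes, 2 below) summed to 1260 and 1504 on Erg-labelled and 1108 and 1169 on control arrays of day 1, and to 1186 and 841 on Erg-labelled and 982 and 1275 on control arrays of day 0. The part of these levels in the spread of the 40 genes was not tested, and in RNA from whole cultures fewer cells of a type and less RNA per cell cannot be told apart.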

How the data were processed

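Total RNA was hybridised to 8 arrays in 4 groups of 2. The deposited values are intensity values on the linear scale, made by the authors with RMA (Robust Multi-array Average). The deposited workbook's notes name Partek GS 6.6 for this step whereas dChip of 2005 appears in the series text, and which was used is not settled by the sources used here. RMA scales all arrays to 1 distribution, so levels are relative, and array medians lay between 6.59 and 6.70 on the log2 scale. Raw images and detection calls were not used here, so signal over background is unknown.

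Intensities were taken to log2, and all 45037 probe sets were fitted with limma 3.58.1 (lmFit, eBayes; R 4.3.3) over 4 groups, with 4 residual degrees of freedom, and with 2.78 and 0.168 as the prior degrees of freedom and SD. P values were adjusted by Benjamini-Hochberg over the whole array and called under 0.05. Each adjusted p comes from this fit, since 2 arrays against 2 allow no exact permutation p below 0.333. The fit was tested on simulated data. Of the probe sets, 5820 carry no symbol and 1399 several, which were split. Genes named in each comparison of 2 groups are its 5 highest and 5 lowest members and those past the threshold. Values of every array are given for these, except Rrp1b, Noc3l, Ddx10, Ddx18, Npm3, Wdr75 and Nop10. They are also given for further members that show how a class behaved, chosen after their values were seen. From each other pathway list and the leukocyte markers, members were named by smallest p in the control day comparison, with Myc and Mycn added. Members of the other marker lists were not named. Of a list of 38 small subunit factors Nop9 was not measured. The members and lists were chosen with earlier results of these data known.

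The alternatives were an intensity trend, a filter on dim probe sets, averaging the probe sets of a symbol, the 4 arrays of a comparison alone, cyclic loess, array weights, a replicate block, and each array left out. A block with crossed numbers on day 0 was added after the data were seen. Promoter letters come from RefSeq (GRCm38.p6). Python 3.11.15 and matplotlib 3.10.9 were used.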

Additional observations from a re-analysis of the deposited data

How the results depend on the processing

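Counts of calls among the 40 genes changed with the setting, with 2 arrays a group. The 2 lower calls of the control day comparison became 4 with array weights, 0 with probe sets averaged per symbol, and 8 with only the 4 arrays of the comparison, where 16.6%, 9.62% and 14.3% of all symbols were lower. For the control day comparison, calls from fits that leave out 1 array are not given, since a group then has a lone array. Where their range is given for another comparison, it is not read as a result. In Erg-labelled cultures the 0 lower calls became 1 with cyclic loess, 1 without dim probe sets (2.43% of all symbols in each), and 0 to 30 with each array left out. The count higher on Erg-labelled than control arrays of day 0 ran from 0 to 11 in the same way. Both upper ends came from the fit without Erg-labelled replicate 1 of day 0. In that fit the share of all symbols called in the same direction was also above that of the main fit. The fit with only the 4 arrays of a comparison takes no spread from the other groups, unlike the main fit. The cause of these changes was not tested further. The median day difference stayed negative except without Erg-labelled replicate 2 of day 0 (0.05, Erg-labelled cultures) and without control replicate 1 of day 0 (0.08, control cultures). Leaving out each array moved these medians from -1.42 to 0.05 in Erg-labelled and from -0.70 to 0.08 in control cultures. The replicate numbers were not taken as pairs over both days: deviations of same-numbered arrays had r of 0.32 between the groups of day 1 but -0.61, a crossed order, between those of day 0, over all probe sets. With the replicate block within each day the control count was 0 lower (1.96% of all symbols). With the day 0 numbers crossed, a choice made from the gaps seen on day 0, it was 10 lower and 1 higher (14.4% and 14.5% of all symbols), and 19 lower in Erg-labelled cultures (6.15%). Bop1 and Nhp2 kept differences of -1.09 and -1.41 with the replicate block, with adjusted p of 0.0762 and 0.124. With probe sets averaged they had -0.36 (adjusted p 0.173) and -1.40 (adjusted p 0.103). The replicate gaps of day 0 had medians of 1.38 (Erg-labelled) and 0.72 (control) with cyclic loess, and 1.47 and 0.70 with probe sets averaged.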
